A study of Homo sapiens with 12 samples.

Results

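The androgen receptor works with DNA-binding partner factors and with coactivators, and 9 genes for such proteins were followed here in 22Rv1 cells depleted of CENPA. They were taken by name, as genes whose products are known to act with the receptor, when earlier results of these data were already known. The DNA-binding factors are FOXA1, HOXB13, GATA2 and GRHL2, and the coactivators are NCOA1, NCOA2, NCOA3, TRIM24 and ATAD2. All 9 were among the 14828 genes in the expression table. The transcript of the receptor itself was not analysed here.

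22Rv1 is a human prostate carcinoma line. A lentiviral pTRIPZ vector, induced by doxycycline, gave the cells either a nontargeting shRNA (shNT) or an shRNA against CENPA, of which there were 2 (shCENPA1 and shCENPA2). All 3 groups were selected with puromycin and received doxycycline at 2 µg/ml for 72 h, so each fold change below compares cells under the same drug, and uninduced cells were not analysed here. No source used here states whether the transduced cells were a pool or a clone. mRNA was sequenced from 2 libraries per group, each run in 2 lanes that were averaged, so n = 2 libraries. Nothing in the labels says that the libraries came from separate cultures, so p-values measure the spread between these libraries, which may be technical.

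As background, the receptor reaches most of its enhancers with the help of lineage factors. FOXA1 is a forkhead pioneer factor that can bind its sites in compacted nucleosomal DNA and open them for the receptor. GATA2 and HOXB13 bind beside the receptor at many prostate enhancers, and GRHL2, a grainyhead factor of epithelial cells, shares binding sites with it. Once bound, the receptor recruits the steroid receptor coactivators NCOA1, NCOA2 and NCOA3, which bring histone acetyltransferases to the gene. TRIM24 and ATAD2 read acetylated histones through a bromodomain, and ATAD2 is also known as a target of E2F factors in dividing cells. CENPA, the protein depleted here, is the histone H3 variant that marks centromeres.

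Levels are given as RPKM, reads on a gene per exon length and sequencing depth, and differences as log2 fold changes with standard errors (SE) from limma. A gene passed the test with a Benjamini-Hochberg adjusted p under 0.05 over the 14624 genes tested. The libraries held 79172294 to 133074655 reads on genes, and each of the 9 genes had 7416 to 140109 reads per library, so the number of libraries and not the depth limits precision. Of 12 luminal prostate markers, including FOXA1 and HOXB13, 12 were measured, with a summed level of 1080 to 1140 RPKM per library, against 2.27 to 3.28 RPKM for the 2 of 6 basal markers measured. Without FOXA1 and HOXB13, the other 10 luminal markers summed to 747 and 772 RPKM in the controls, 712 and 745 RPKM with shCENPA1, and 691 and 725 RPKM with shCENPA2. Of these 10, 1 fell and 0 rose with shCENPA1 (median log2 fold change -0.04), and 5 fell and 1 rose with shCENPA2 (median -0.41), where the keratin KRT19 had a log2 fold change of -2.00 (adjusted p = 2.03e-05, limma) and FOLH1, prostate-specific membrane antigen, 0.52 (adjusted p = 0.00472). Fibroblast and leukocyte markers summed to at most 5.98 and 0.909 RPKM, and 0 of 4 endothelial markers were in the table. No fibroblast marker averaged more than 2.88 RPKM over the libraries (mean taken on the log2 scale). Of 3 fibroblast markers measured, DCN rose with both shRNAs (log2 fold changes 1.93 and 1.48, adjusted p = 0.00271 and 0.0053, limma) and LUM with shCENPA2 (0.74, adjusted p = 0.00386), and their summed level was 3.68 and 3.95 RPKM in the controls, 3.55 and 3.57 RPKM with shCENPA1, and 5.86 and 5.98 RPKM with shCENPA2. Of 8 neuroendocrine markers 5 were measured, with sums of 109 and 110 RPKM in the controls, 104 and 115 RPKM with shCENPA1, and 93.4 and 96.2 RPKM with shCENPA2. CHGA rose with both shRNAs (log2 fold changes 2.06 and 1.76, adjusted p = 0.000968 and 0.00102, limma). ENO2 fell with both (-0.39 and -0.52, adjusted p = 0.0356 and 0.00469, limma). CHGB rose with shCENPA1 only (0.41, adjusted p = 0.039, limma), and SCG2 and SYP passed with neither. The part of these marker changes in the results below was not tested. Alternative fits are not reported for KRT19, FOLH1 and the fibroblast and neuroendocrine markers. CENPA itself stood at 5.52 and 4.54 RPKM in the shNT libraries, at 1.42 and 1.5 RPKM with shCENPA1 and at 0.72 and 0.755 RPKM with shCENPA2. These are falls of 70.9% (adjusted p = 0.000287, limma) and 85.3% (adjusted p = 1.13e-05, limma).

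In the shNT libraries the DNA-binding factors were the more abundant of the 9 transcripts on the RPKM scale. HOXB13 led at 221 to 238 RPKM, above 99.4% of genes tested, followed by FOXA1 at 113 to 119 RPKM, above 98.4%. GATA2 (36.5 to 40.9 RPKM), GRHL2 (27.8 to 28.7 RPKM) and ATAD2 (23.8 to 26.2 RPKM) came next without overlap between neighbours. TRIM24 and NCOA2 overlapped at 17.3 to 18.2 RPKM, and so did NCOA1 and NCOA3 at 11.3 to 11.6 RPKM.

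**Figure D1:**
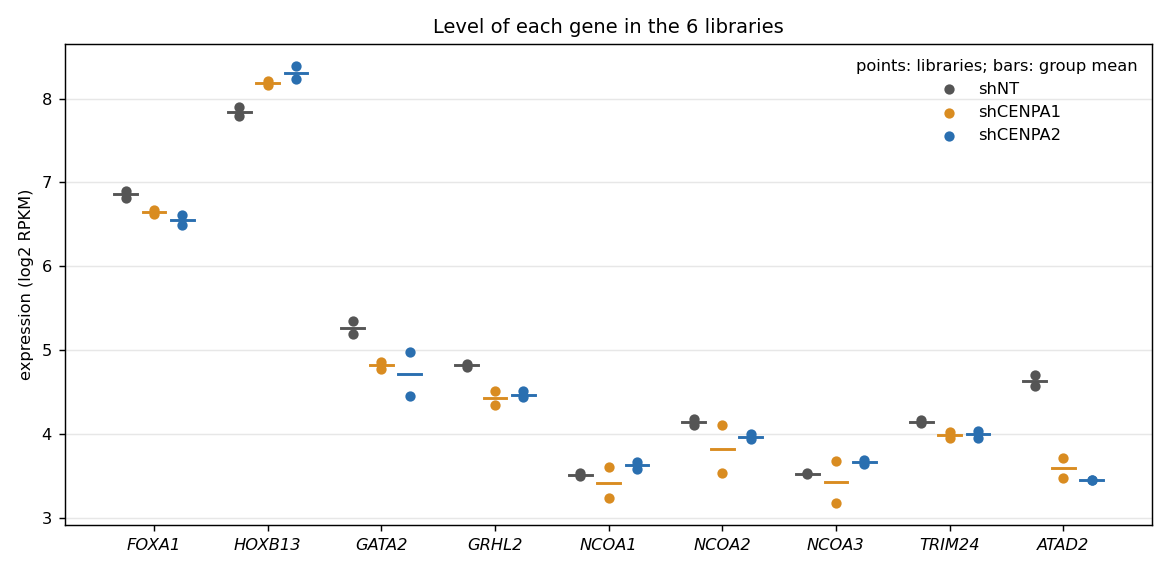
Expression of the 9 genes in log2 RPKM (y axis) in each of 6 libraries, with points for libraries (mean of 2 lanes) and short bars for the mean of the 2 libraries in each group. ATAD2 lies well below its shNT level in all 4 knockdown libraries, HOXB13 lies above it, and for NCOA1, NCOA2 and NCOA3 the 2 shCENPA1 libraries lie apart.

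With shCENPA1, 2 of the 9 genes fell (GRHL2 and ATAD2) and 0 rose, where 4.45% of all genes tested fell and 2.69% rose. With shCENPA2, 4 fell (FOXA1, GATA2, GRHL2 and ATAD2) and 1 rose (HOXB13), where 10.5% of all genes fell and 8.05% rose. ATAD2 was the only one of the 9 beyond a log2 fold change of -1 among those that passed, with either shRNA. Of all genes, 1.83% met both conditions with shCENPA1 and 4.45% with shCENPA2. The median log2 fold change of the 9 genes was -0.21 and -0.18, and that of all genes 0.00 and 0.01. Both contrasts use the same shNT libraries, so their values are not independent of each other.

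Among the 4 DNA-binding factors, 3 were lower and 1 was higher in the knockdown libraries. FOXA1 read 119 and 113 RPKM in the shNT libraries, 102 and 99.3 RPKM with shCENPA1, and 90 and 97.3 RPKM with shCENPA2. All 4 knockdown libraries lay below both controls. With shCENPA2 FOXA1 fell by 19.3% (log2 fold change -0.31, SE 0.09, adjusted p = 0.0448, limma). With shCENPA1 it was 13.3% lower and did not pass (log2 fold change -0.21, SE 0.09, adjusted p = 0.227, limma). FOXA1 lies on the minus strand of chromosome 14 (GRCh38, 37589552 to 37596059). TTC6, on the opposite strand over part of the same interval, was measured at 2.12 to 2.89 RPKM and did not pass the test with either shRNA (adjusted p = 0.791 and 0.727, limma).

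GATA2, a zinc finger factor on the minus strand of chromosome 3 (128479427 to 128493201), read 40.9 and 36.5 RPKM in the shNT libraries and 29.1 and 27.5 RPKM with shCENPA1. With shCENPA2 it read 31.6 and 22.1 RPKM, the widest gap of the 9 genes in that group. All 4 knockdown libraries again lay below both controls. GATA2 fell by 31.6% with shCENPA2 (log2 fold change -0.55, SE 0.15, adjusted p = 0.0335, limma). It was 26.7% lower with shCENPA1, which did not pass (log2 fold change -0.45, SE 0.15, adjusted p = 0.118, limma). Its antisense transcript GATA2-AS1 overlaps the gene and was measured at 14.4 to 24.9 RPKM, with log2 fold changes of -0.50 (SE 0.16) and -0.25 (SE 0.16) that did not pass (adjusted p = 0.0996 and 0.31, limma). The libraries were stranded, but the sources used here do not state that strand was used in counting, so reads of the 2 transcripts may not be fully separated.

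Sequence upstream of the start site is shown for FOXA1 and GATA2, the 2 factors that fell with shCENPA2 and have an entry in the RefSeq promoter table (GRCh38.p14), which holds 4 of the 9 genes (FOXA1, GATA2, NCOA1 and NCOA3). The sequences run 5′ to 3′ on the strand of the gene, and capitals mark matches to the motifs searched. For FOXA1, 151 bases that lie in no annotated exon are given (chr14:37595349-37595499, minus strand). The other 99 of the 250 bases before this start lie in exons of FOXA1. This start and the stretch shown lie inside the gene interval given above, so the stretch is not the sequence before the outermost start of the gene. GATA2 has 2 annotated starts, with 250 bases before each (chr3:128493202-128493451 and chr3:128488531-128488780, minus strand).
FOXA1: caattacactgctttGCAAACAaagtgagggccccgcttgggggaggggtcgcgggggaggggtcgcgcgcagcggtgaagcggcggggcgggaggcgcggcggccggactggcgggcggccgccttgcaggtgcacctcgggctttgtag
GATA2, upstream start: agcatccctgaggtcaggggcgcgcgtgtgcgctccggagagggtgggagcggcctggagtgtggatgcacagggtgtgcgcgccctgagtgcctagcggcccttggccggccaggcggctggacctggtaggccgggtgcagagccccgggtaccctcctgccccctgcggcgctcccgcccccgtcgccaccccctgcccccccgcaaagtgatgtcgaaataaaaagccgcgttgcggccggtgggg
GATA2, downstream start: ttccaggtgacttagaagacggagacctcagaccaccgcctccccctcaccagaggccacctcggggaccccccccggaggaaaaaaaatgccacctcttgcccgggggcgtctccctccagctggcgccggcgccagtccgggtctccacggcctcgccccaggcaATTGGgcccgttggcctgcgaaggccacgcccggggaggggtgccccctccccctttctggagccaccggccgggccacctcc

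Short motifs were searched on both strands of the 250 bases before each start. The forkhead letters TGTTTAC or TGTTTGC were found before FOXA1, on the opposite strand and 235 bases before the start, and occur in 6.09% of all 35116 windows of that length in the table. The CCAAT letters were found on the opposite strand 83 bases before the downstream start of GATA2 and occur in 32% of windows. The GATA letters AGATAA (9.17% of windows), the receptor's half-site AGAACA (12.4%), the CHR letters TTTGAA (13.3%) and 4 E2F-type letter strings, TTTCCCGC, TTTGGCGC, TTTCGCGC and TTTGCCGC (2.79%), had no match in these windows. The upstream sequences of GATA2 held 72.8% and 71.2% G and C, and the FOXA1 stretch 72.2%.

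GRHL2 on chromosome 8 (101492439 to 101669726, plus strand) was the factor that fell with both shRNAs. It read 28.7 and 27.8 RPKM in the shNT libraries, 22.8 and 20.4 RPKM with shCENPA1, and 22.8 and 21.7 RPKM with shCENPA2. The highest knockdown library stood well below the lowest control. The fall was 23.6% with shCENPA1 (log2 fold change -0.39, SE 0.09, adjusted p = 0.0342, limma) and 21.4% with shCENPA2 (log2 fold change -0.35, SE 0.09, adjusted p = 0.0277, limma).

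HOXB13, the homeobox factor at the end of the HOXB cluster (chromosome 17, 48724763 to 48728750, minus strand), moved the other way. It read 238 and 221 RPKM in the shNT libraries, 286 and 295 RPKM with shCENPA1, and 336 and 301 RPKM with shCENPA2, so that every knockdown library lay above both controls. HOXB13 rose 1.39-fold with shCENPA2 (log2 fold change 0.47, SE 0.11, adjusted p = 0.0164, limma). With shCENPA1 it was 1.27-fold higher and did not pass (log2 fold change 0.34, SE 0.11, adjusted p = 0.104, limma).

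**Figure D2:**
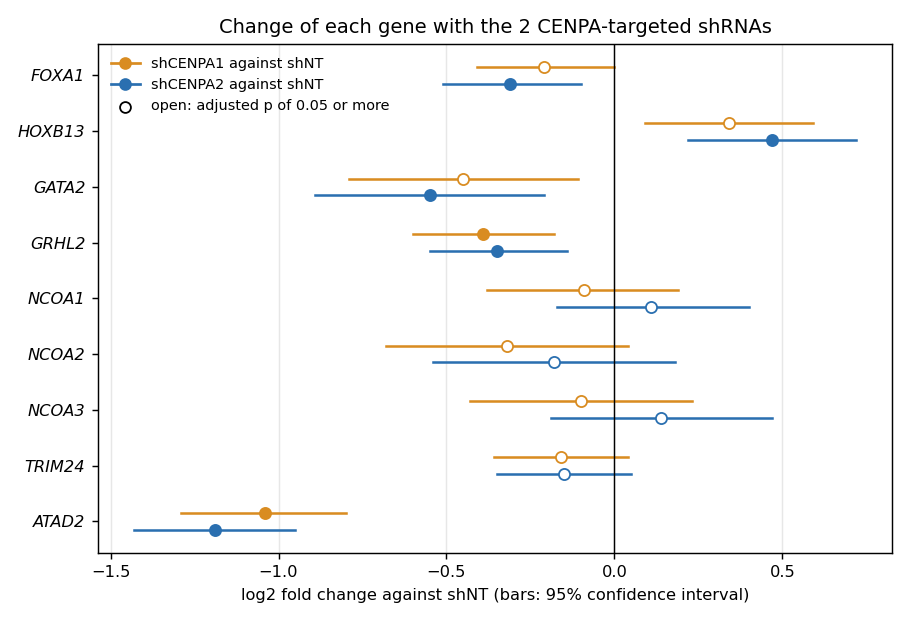
Log2 fold change against shNT (x axis) of the 9 genes with shCENPA1 (orange) and shCENPA2 (blue), with 95% confidence intervals from limma over 6 libraries; filled circles passed an adjusted p of 0.05. ATAD2 lies near -1 with both shRNAs, HOXB13 lies above 0, and the intervals of NCOA1, NCOA2, NCOA3 and TRIM24 cross 0.

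The ratio of HOXB13 to FOXA1 on the RPKM scale separated the groups. HOXB13 exceeded FOXA1 by 2 and 1.96 times in the shNT libraries, by 2.81 and 2.98 times with shCENPA1 and by 3.73 and 3.09 times with shCENPA2. The ratio of HOXB13 to GATA2 read 5.83 and 6.06 in the controls, 9.83 and 10.7 with shCENPA1, and 10.6 and 13.6 with shCENPA2. In neither ratio did a knockdown library reach the control range. These ratios restate the changes given above and were not tested separately.

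**Figure D3:**
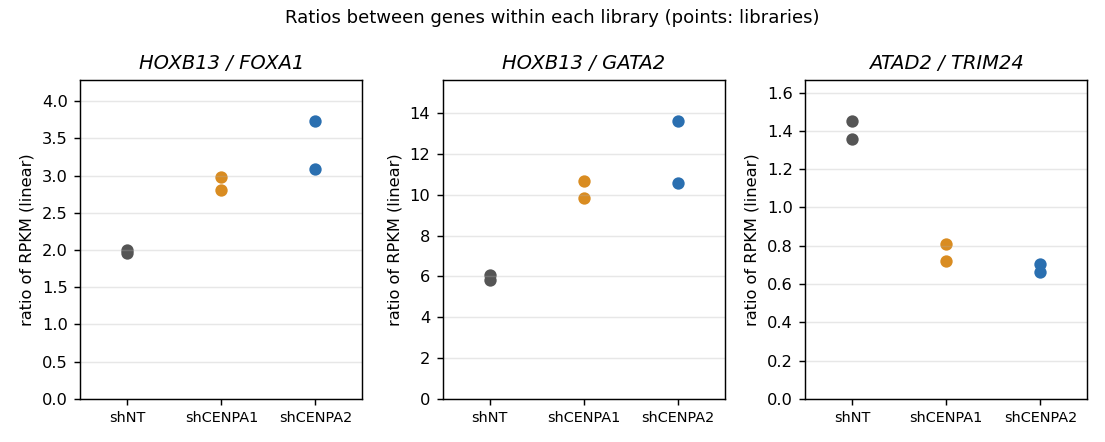
Ratios of RPKM (linear y axes from 0) of HOXB13 to FOXA1, HOXB13 to GATA2 and ATAD2 to TRIM24, 1 point per library in each of the 3 groups. The first pair of ratios is higher and the last one lower in all 4 knockdown libraries than in either shNT library.

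The families of these factors were read in full, as far as they were measured. Of 8 HOXB genes measured, 3 rose with shCENPA2 (HOXB13, HOXB5 and HOXB9) and 0 passed with shCENPA1. Of all genes tested, 8.05% rose with shCENPA2, and 4.45% fell and 2.69% rose with shCENPA1. HOXB5 (log2 fold change 0.57, adjusted p = 0.00498, limma) and HOXB9 (0.43, adjusted p = 0.0161, limma) stood at 7.94 to 9.41 RPKM in the controls, far under HOXB13. HOXB4 and HOXB8 had negative log2 fold changes with both shRNAs, and neither passed. GRHL1, a relative of GRHL2, read 2.17 and 2.43 RPKM in the controls and also fell with shCENPA2 (log2 fold change -0.51, adjusted p = 0.0458, limma), but not with shCENPA1 (-0.45, adjusted p = 0.119).

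GATA3, a luminal GATA factor, changed in opposite directions with the 2 shRNAs. It read 11.5 and 10.4 RPKM in the shNT libraries, 15.3 and 16 RPKM with shCENPA1, and 4.49 and 4.19 RPKM with shCENPA2. It rose with shCENPA1 (log2 fold change 0.52, SE 0.10, adjusted p = 0.0154, limma) and fell with shCENPA2 (-1.33, SE 0.10, adjusted p = 4e-05, limma). GATA6 fell with shCENPA2 (log2 fold change -0.47, adjusted p = 0.0374, limma) and did not pass with shCENPA1 (-0.12, adjusted p = 0.643).

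None of the steroid receptor coactivators passed the test, and the intervals leave room for moderate change. NCOA1 (chromosome 2, 24491254 to 24770702, plus strand) read 11.3 and 11.6 RPKM in the controls, 12.2 and 9.43 RPKM with shCENPA1, and 12.1 and 12.7 RPKM with shCENPA2. NCOA3 (chromosome 20, 47501887 to 47656877, plus strand) read 11.5 and 11.6 RPKM, 12.8 and 9.07 RPKM, and 12.9 and 12.6 RPKM in the same order. NCOA2 (chromosome 8, 70109782 to 70403808, minus strand) read 17.3 and 18.2 RPKM, 17.3 and 11.6 RPKM, and 16 and 15.3 RPKM. Library 1 of shCENPA1 lay above the controls for NCOA1 and NCOA3 and at their lower end for NCOA2, and library 2 lay below the controls for all 3 genes.

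The log2 fold changes of NCOA1 were -0.09 with shCENPA1 (95% interval -0.38 to 0.19, adjusted p = 0.705, limma) and 0.11 with shCENPA2 (-0.17 to 0.40, adjusted p = 0.584). Those of NCOA3 were -0.10 (-0.43 to 0.23, adjusted p = 0.733, limma) and 0.14 (-0.19 to 0.47, adjusted p = 0.561). NCOA2 had the lowest estimates of the family, -0.32 (-0.68 to 0.04, adjusted p = 0.282, limma) and -0.18 (-0.54 to 0.18, adjusted p = 0.487). Without library 2 of shCENPA1, the shCENPA1 estimates became 0.09 for NCOA1, 0.15 for NCOA3 and -0.03 for NCOA2. Without library 1 of shCENPA1, that of NCOA2 was -0.60. The lowest shCENPA1 estimates over all alternative fits were -0.28 for NCOA1 and -0.35 for NCOA3.

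Library 2 of shCENPA1 stood apart from library 1 by gene length. Its log2 RPKM was lower than that of library 1 by 0.37 for NCOA1, 0.50 for NCOA3 and 0.57 for NCOA2, gaps wider than those of 86.2%, 93% and 95.1% of genes. These transcripts are long, with exon lengths of 8633, 8402 and 10026 bases recovered from the table. Over all genes of more than 8000 bases the median difference between these 2 libraries was -0.14, and over genes of up to 2000 bases it was 0.16. In the shNT and shCENPA2 pairs the medians of the length classes lay between -0.03 and 0.03. TRIM24, at 9223 bases, differed by -0.08 between the same libraries. With each library's trend in log2 RPKM (relative to the mean of each gene) over gene length removed, an alternative chosen after seeing the data, the shCENPA1 estimates were -0.07 for NCOA1, -0.28 for NCOA2 and -0.08 for NCOA3, and none passed (adjusted p = 0.732, 0.251 and 0.75, limma). The part of RNA quality in these values was not tested.

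**Figure D4:**
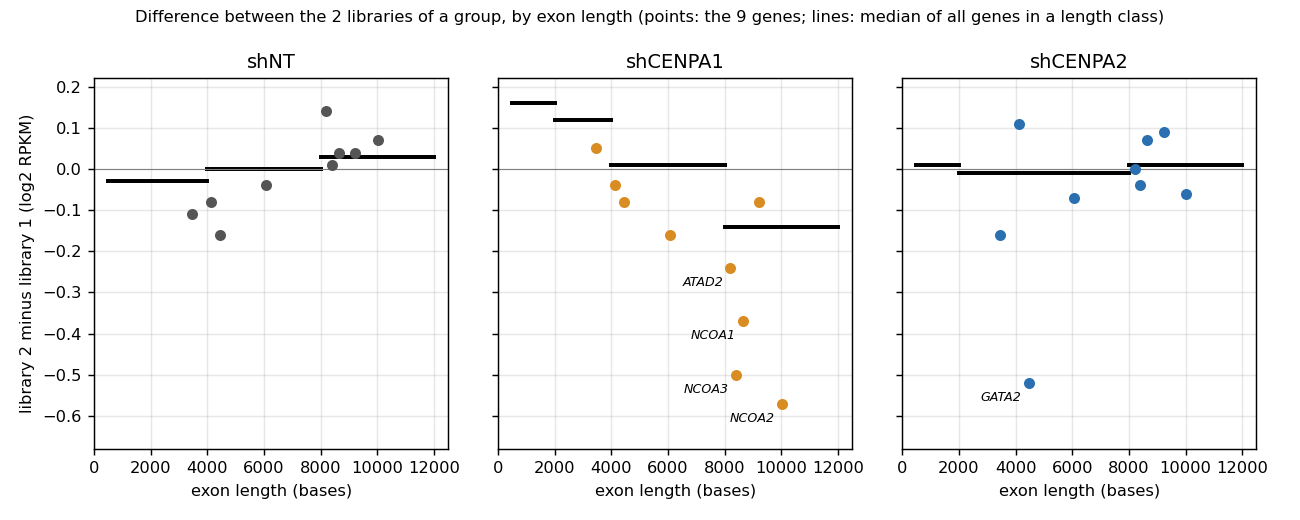
Library 2 minus library 1 in log2 RPKM (y axis) against exon length in bases (x axis) for the 9 genes in each group (points), with the median of all tested genes in 4 length classes (black lines; the first and last class are open-ended). NCOA1, NCOA2, NCOA3 and ATAD2 lie furthest below 0 in shCENPA1, where the median falls with length from 0.16 to -0.14. GATA2 lies furthest below 0 in shCENPA2.

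The shares of the 3 coactivators in their summed RPKM were compared by library, and no difference could pass the test with 2 libraries a group. NCOA2 made up 43.1% and 43.8% of the summed RPKM of NCOA1, NCOA2 and NCOA3 in the controls, 40.8% and 38.6% with shCENPA1, and 39% and 37.8% with shCENPA2. The knockdown libraries lay below both controls, in library 2 of shCENPA1 as in the others. The difference was -3.73 and -5.06 percentage points, each with p = 0.333 in a two-sided exact permutation test, which with 2 libraries against 2 cannot go below 0.33. The summed level was 40 and 41.4 RPKM in the controls, 42.3 and 30.1 RPKM with shCENPA1, and 40.9 and 40.6 RPKM with shCENPA2.

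Other numbered NCOA genes gave 1 call. NCOA4, a ferritin receptor that also binds the androgen receptor, was the most abundant of the 7 measured, at 81.8 to 91.7 RPKM over all libraries, and did not pass (adjusted p = 0.733 and 0.351, limma). NCOA7 rose with shCENPA2 (log2 fold change 0.48, adjusted p = 0.0222, limma), at 4.33 and 4.72 RPKM in the controls. With this shRNA 8.05% of all genes tested rose.

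TRIM24 and ATAD2, the coactivators with a bromodomain, separated clearly. TRIM24 (chromosome 7, 138460259 to 138589996, plus strand) read 17.5 and 18 RPKM in the shNT libraries, 16.3 and 15.5 RPKM with shCENPA1, and 15.5 and 16.5 RPKM with shCENPA2. Its log2 fold changes of -0.16 (95% interval -0.36 to 0.04, adjusted p = 0.332, limma) and -0.15 (-0.35 to 0.05, adjusted p = 0.287) did not pass, although all knockdown libraries lay below both controls.

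ATAD2 (chromosome 8, 123319850 to 123416350, minus strand) read 23.8 and 26.2 RPKM in the shNT libraries, 13.2 and 11.1 RPKM with shCENPA1, and 10.9 and 10.9 RPKM with shCENPA2. No knockdown library came near the control range. ATAD2 fell by 51.5% with shCENPA1 (log2 fold change -1.04, SE 0.11, adjusted p = 0.000535, limma) and by 56.2% with shCENPA2 (-1.19, SE 0.11, adjusted p = 9.24e-05, limma). The ratio of ATAD2 to TRIM24 was 1.36 and 1.45 in the controls, 0.808 and 0.72 with shCENPA1, and 0.705 and 0.662 with shCENPA2, so that the order of these 2 transcripts turned over. ATAD2B, its closest relative, read 3.53 and 3.88 RPKM in the controls and did not pass (log2 fold change -0.31, adjusted p = 0.332, and -0.08, adjusted p = 0.79, limma).

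Counted by overlap alone, 5 of the 9 genes had both shCENPA1 libraries below both shNT libraries and 1 had both above. Of all genes tested 27.1% and 29.9% did so. With shCENPA2, 6 lay below and 3 above, against 31% and 31.5% of all genes.

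The nearest expression profiles were sought for the 2 genes that fell with both shRNAs, by Euclidean distance of log2 RPKM over the 6 libraries after centring each gene on its mean. Nearest to GRHL2 were NSD2, a histone methyltransferase (distance 0.066), LINC01560 (0.0746) and ARPIN (0.0968), with log2 fold changes of -0.31 to -0.45. Nearest to ATAD2 were STIL, a centriole assembly protein (0.123), KNTC1, a kinetochore protein (0.137), and ECT2, which acts in cytokinesis (0.137), with log2 fold changes of -1.03 to -1.31. The distances are a description of these 6 libraries.

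The wider machinery of the receptor was read from hand-written lists. For every list count that follows, the shares over all genes tested were 4.45% lower and 2.69% higher with shCENPA1. With shCENPA2 they were 10.5% lower and 8.05% higher. Of 52 other androgen receptor coactivators tested, 0 passed with shCENPA1 (5 at an unadjusted p under 0.05, and 0 with voom on recovered reads) and 5 passed with shCENPA2. These were the nuclear transport GTPase RAN (log2 fold change -0.37, adjusted p = 0.0236, limma), the RNA-binding protein SFPQ (-0.35, adjusted p = 0.0237), the histone demethylase KDM4A (0.38, adjusted p = 0.0212), NCOA7 and the ubiquitin ligase TRIM68 (0.61, adjusted p = 0.00379). The median of this list was -0.01 and 0.04. Of 36 other bromodomain proteins, 0 passed with either shRNA (2 and 5 at an unadjusted p under 0.05, 0 with voom), and the list medians were -0.07 and -0.01.

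Of 28 corepressors, CCND1 fell with both shRNAs and NR2F2 with shCENPA2. CCND1, cyclin D1, which drives entry into the cell cycle and can also repress the receptor, read 546 and 512 RPKM in the controls, 369 and 330 RPKM with shCENPA1, and 334 and 331 RPKM with shCENPA2. It fell by 33.9% (adjusted p = 0.0145, limma) and 37.1% (adjusted p = 0.00375, limma). NR2F2, an orphan nuclear receptor, had a log2 fold change of -0.64 with shCENPA2 (adjusted p = 0.00816, limma). The list medians were -0.07 and -0.02.

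Of 15 receptor chaperones tested, the co-chaperone FKBP5, itself induced by androgen, fell with both shRNAs and PTGES3 with shCENPA2 (log2 fold change -0.41, adjusted p = 0.0317, limma). FKBP5 read 15.3 and 15.4 RPKM in the controls, 10.7 and 10.8 RPKM with shCENPA1, and 7.17 and 7.44 RPKM with shCENPA2. Its falls were 29.8% (adjusted p = 0.00916, limma) and 52.4% (adjusted p = 6.56e-05, limma). The list medians were 0.01 and -0.10.

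Among 43 other lineage and pioneer transcription factors tested, 3 fell and 2 rose with shCENPA1, and 11 fell and 8 rose with shCENPA2, with medians of -0.12 and -0.11, against 4.45% and 2.69%, and 10.5% and 8.05%, of all genes. Without any 1 of the 4 libraries compared, 1 or 2 fell and 0 or 1 rose with shCENPA1. With shCENPA2, 4 fell and 2 rose without shNT library 1, 5 fell and 2 rose without shNT library 2, and 5 fell and 5 rose without shCENPA2 library 1. FOXM1, a forkhead factor of dividing cells, fell from 25.1 and 24 RPKM to 11 and 11.5 RPKM with shCENPA1 and to 9.72 and 7.61 RPKM with shCENPA2 (adjusted p = 0.000683 and 4.81e-05, limma). HOXA13, a posterior homeobox gene, fell from 3.24 and 3.17 RPKM to 1.49 and 1.49 RPKM and to 1.42 and 1.01 RPKM (adjusted p = 0.00664 and 0.000771, limma). ETV1, an ETS factor, rose from 22.7 and 23 RPKM to 33.5 and 29.5 RPKM and to 37.1 and 40.2 RPKM (adjusted p = 0.0197 and 0.000628, limma). In each of these 3 genes the controls did not overlap the knockdown libraries.

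**Figure D5:**
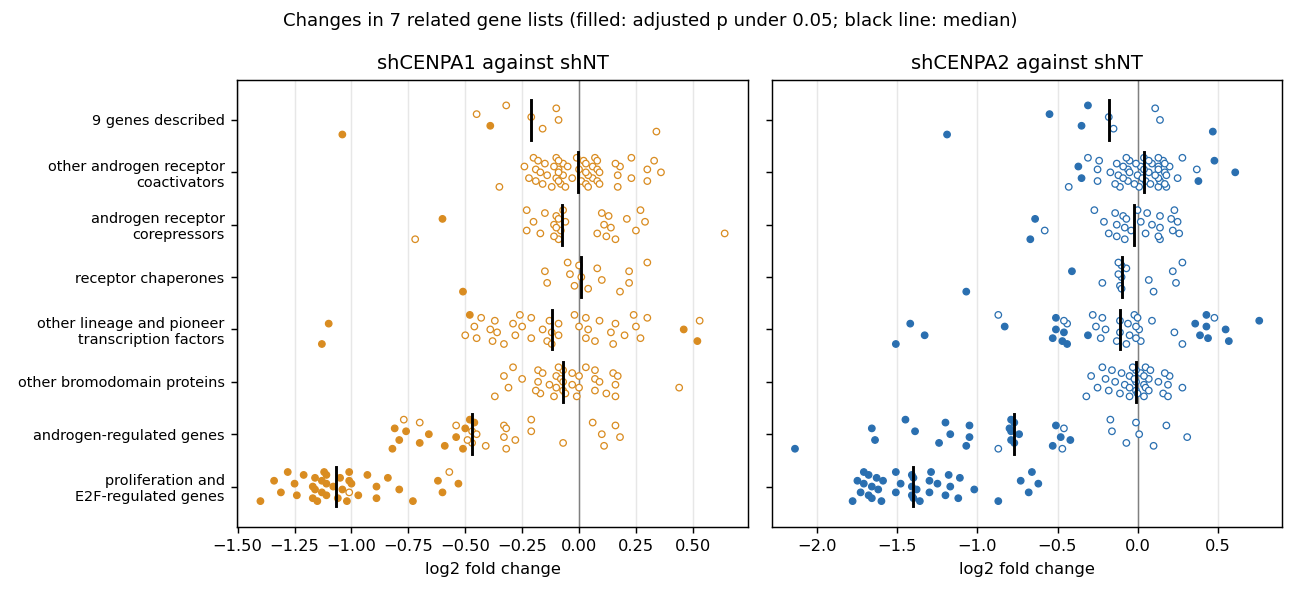
Log2 fold changes (x axis) against shNT with shCENPA1 (left) and shCENPA2 (right) for the 9 genes and 7 related lists, 1 point per gene, filled where the adjusted p was under 0.05, with a black line at each median. Coactivators, corepressors, chaperones and bromodomain proteins centre near 0, and the androgen-regulated and proliferation lists lie to the left with medians of -0.47 and -0.77, and -1.07 and -1.40.

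The known targets of the receptor were read beside its partners. Of 33 androgen-regulated genes tested, 12 fell and 0 rose with shCENPA1, 22 fell and 0 rose with shCENPA2, and 12 fell with both, with medians of -0.47 and -0.77. Of all genes, 4.45% and 10.5% fell. The shCENPA1 count was 5 without shNT library 1 or shCENPA1 library 2, 6 without shNT library 2, and 25 when all 4 runs of a group were taken as replicates although they share libraries. The shCENPA2 count was 16 to 24 over the alternatives. KLK4, a kallikrein protease, fell from 59.2 and 57.7 RPKM to 30.9 and 35.4 RPKM and to 24.9 and 18.4 RPKM. HPGD, which degrades prostaglandins, fell from 15.7 and 16.6 RPKM to 8.86 and 9.9 RPKM and to 5.35 and 4.9 RPKM. ACSL3, an acyl-CoA synthetase, fell from 15.4 and 16.1 RPKM to 8.83 and 9.18 RPKM and to 8.85 and 9.3 RPKM. The zinc finger gene ZBTB10 had log2 fold changes of -0.76 and -1.17 (adjusted p = 0.000861 and 3.22e-05, limma).

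The classical target KLK3, which encodes prostate-specific antigen, was low in all libraries, at 0.716 and 0.718 RPKM in the controls, 0.377 and 0.47 RPKM with shCENPA1, and 0.222 and 0.239 RPKM with shCENPA2. It fell with shCENPA2 (log2 fold change -1.64, adjusted p = 0.0016, limma) and did not pass with shCENPA1 (-0.77, adjusted p = 0.0972). At this low level the size of the change moved with the constant added to RPKM, to -0.48 with shCENPA2 and -0.27 with shCENPA1 after adding 1 (adjusted p = 0.000989 and 0.033, limma). KLK3 passed in 21 of 21 alternatives with shCENPA2 and in 3 with shCENPA1. The androgen-induced protease gene TMPRSS2 read 3.97 and 3.78 RPKM, 4.25 and 4.56 RPKM, and 2.43 and 2.06 RPKM, with log2 fold changes of 0.18 (adjusted p = 0.471, limma) and -0.79 (adjusted p = 0.00331).

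Genes of the dividing cell were lower in the same libraries. Of 38 proliferation and E2F-regulated genes, 36 fell with shCENPA1 and 38 with shCENPA2, with medians of -1.07 and -1.40. MKI67, the Ki-67 proliferation antigen, fell from 17.2 and 17.1 RPKM to 7.44 and 5.71 RPKM and to 5.57 and 5.27 RPKM. TOP2A, which untangles replicated DNA, had log2 fold changes of -1.34 and -1.71, the mitotic checkpoint kinase BUB1 -1.31 and -1.60, and cyclin A (CCNA2) -1.28 and -1.63. The log2 fold change of ATAD2 was close to the median of this list with shCENPA1 and smaller in size with shCENPA2. The part of the change in proliferation genes in the levels of ATAD2 and of the other 8 genes was not tested.

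The 2 CENPA-targeted shRNAs were compared directly. CENPA was 49.4% lower with shCENPA2 than with shCENPA1 (log2 fold change -0.98, SE 0.16, adjusted p = 0.0209, limma). This difference of CENPA did not pass by voom on recovered reads or after adding 1 to RPKM. Of the 9 genes, 0 passed the limma test between the shRNAs, with adjusted p from 0.532 to 0.974. At an unadjusted p under 0.05, 0 passed, and 0 passed with voom on recovered reads. Of all genes, 1.03% were lower and 0.39% higher with shCENPA2. The differences of shCENPA2 minus shCENPA1 were -0.10 for FOXA1 (95% interval -0.31 to 0.10), 0.13 for HOXB13 (-0.12 to 0.38), -0.10 for GATA2 (-0.44 to 0.24) and 0.04 for GRHL2 (-0.17 to 0.25). For the coactivators they were 0.21 for NCOA1 (-0.08 to 0.49), 0.14 for NCOA2 (-0.22 to 0.50), 0.24 for NCOA3 (-0.09 to 0.57), 0.01 for TRIM24 (-0.19 to 0.21) and -0.15 for ATAD2 (-0.39 to 0.09). The genes that passed with shCENPA2 only, FOXA1, HOXB13 and GATA2, were thus not shown to respond differently to the 2 shRNAs.

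The calls rest unevenly on single libraries. ATAD2 passed with both shRNAs in 22 of 22 alternative fits, with log2 fold changes of -1.17 to -0.92 and -1.26 to -1.12. The shCENPA2 call of FOXA1 was lost on leaving out any of the 4 libraries compared (log2 fold change -0.37 to -0.25, adjusted p up to 0.346, limma). It was also lost with each library centred on its median (adjusted p = 0.0804), with 1 of the 2 lanes alone (0.0515), with the replicate block (0.0806) and with no trend in the variance (0.101). That of HOXB13 was lost without either shNT library or library 1 of shCENPA2, with estimates of 0.52, 0.42 and 0.39. That of GATA2 was lost without shNT library 1 (-0.47), without either shCENPA1 library (-0.55 for both, since the fit shares its estimate of spread) and without shCENPA2 library 2 (-0.29). It was lost too when only the groups compared were fitted (adjusted p = 0.076, limma), where the shCENPA1 difference passed (0.0225), and with no trend in the variance (0.103). GRHL2 lost its shCENPA1 call without either shNT library (-0.37 and -0.41) or shCENPA1 library 2 (-0.31), and its shCENPA2 call without either shNT library (-0.33 and -0.37) or shCENPA2 library 2 (-0.31). Both calls of GRHL2 were also lost with no trend in the variance (adjusted p = 0.106 and 0.0822, limma), and HOXB13 passed with shCENPA1 by voom on recovered reads (0.0331).

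Counts over the lists moved with single libraries as well. Of the 52 other coactivators, 5 passed with shCENPA2, against 1 without either shNT library or shCENPA2 library 1 and 3 without shCENPA2 library 2, and 2 passed with shCENPA1 without shCENPA1 library 1. The shCENPA1 call among corepressors and that among chaperones were lost without either shNT library or shCENPA1 library 2. With shCENPA2, 1 corepressor passed without shNT library 1, and 1 chaperone without either shNT library or shCENPA2 library 1. Of the 36 other bromodomain proteins, 2 passed with shCENPA1 without shCENPA1 library 1, and 1 with shCENPA2 without either shCENPA1 library. With all 4 runs of a group taken as replicates, 13 and 19 coactivators and 6 and 9 bromodomain proteins passed. In the proliferation list 30 to 38 genes fell with shCENPA1 and 37 to 38 with shCENPA2 over the alternatives.

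Among the genes named from the lists, FOXM1, ACSL3, HPGD, ZBTB10, MKI67, TOP2A and CCNA2 passed with both shRNAs in 22 of 22 alternative fits. Leaving out at least 1 shNT or shCENPA1 library ended the shCENPA1 calls of CCND1 (log2 fold changes -0.68 to -0.52 over all fits), FKBP5 (-0.52 to -0.47), HOXA13 (-1.12 to -0.76), ETV1 (0.37 to 0.55), KLK4 (-0.92 to -0.72), BUB1 (-1.37 to -1.12) and GATA3 (0.45 to 0.59). The shCENPA2 calls of RAN, SFPQ, KDM4A, NCOA7, PTGES3 and CCND1 were likewise lost without shNT library 1, as was that of HOXB9, and those of HOXB5, TRIM68, NR2F2, FKBP5, HOXA13, ETV1, KLK4, BUB1 and GATA3 passed in 22 of 22. GRHL1 and GATA6 kept their shCENPA2 calls in 10 and 12 of 22 fits and lost them without any 1 of the 6 libraries (log2 fold changes -0.59 to -0.33 and -0.61 to -0.34 over all fits).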

How the data were processed

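mRNA of 22Rv1 cells was measured by stranded RNA-seq in 12 runs, 6 libraries each run in 2 lanes. According to the methods, TrimGalore, STAR (genome hg38) and HTSeq were used in turn for trimming, alignment and counting, and versions are not given in the sources used here. What the authors deposited is a table of log2 RPKM values, 1 column per run and 1 row for each of 14828 genes. Lanes of a library were averaged, since they share a library, giving 2 libraries per group. Low deposited values differ by steps of whole reads, from which reads were recovered for 14828 genes (tolerance 0.005 reads). They gave depth, exon length and the voom alternative.

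limma 3.58.1 (R 4.3.3) was run on the 14624 genes whose mean log2 RPKM reached -3, with a variance trend and the 3 groups in one model. The prior count in the deposited values draws fold changes of weak genes towards 0. No count model was the main test, since the deposited unit is logarithmic. The script was tested on simulated data. Intervals are 95%.

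Members and gene lists were chosen with earlier results of these data known. Named genes are the 9 members, the nearest profiles, CENPA and up to 4 genes per list. The genes taken from a list passed in one direction with both shRNAs, and their smaller change was largest. Cell type markers named singly come from marker lists and were not picked by this rule. GATA3, GATA6, GATA2-AS1, TTC6, KLK3, TMPRSS2, the other family members and genes named from counts of 5 or fewer were chosen after their values were seen. FKBP5 and FOXM1 stand in 2 lists each. A gene that this rule also named is not reported here. Alternatives covered lanes, a replicate block, filters, constants added to RPKM, scaling, the variance trend, the groups fitted, voom, gene length and each library left out. Positions are from GENCODE 44.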

Additional observations from a re-analysis of the deposited data

Results flagged for a closer look

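Apart from the markers KRT19 and LUM, CENPA and 4 other genes named in the report responded differently to the 2 CENPA-targeted shRNAs. The test was limma's, of shCENPA2 minus shCENPA1, and none of these genes is 1 of the 9 receptor partners. CENPA was lower with shCENPA2 by a log2 fold change of -0.98 (adjusted p = 0.0209), in 2 of 2 libraries below both shCENPA1 libraries. GATA3, which rose with one shRNA and fell with the other, differed by -1.85 (adjusted p = 7.82e-05), TMPRSS2 by -0.98 (adjusted p = 0.00878), HPGD by -0.87 (adjusted p = 0.00531) and FKBP5 by -0.56 (adjusted p = 0.0198). The shCENPA2 libraries lay below the shCENPA1 libraries for CENPA and for each of these 4 genes. The difference of GATA3 passed in 22 of 22 alternative fits, with values of -1.90 to -1.64. That of TMPRSS2 passed in 20, with values of -1.10 to -0.74, and was lost without either shCENPA1 library. That of HPGD passed in 21 (-0.95 to -0.76) and was lost without shCENPA1 library 2. That of FKBP5 passed in 18 (-0.62 to -0.50) and that of CENPA in 17 (-1.02 to -0.50). Both were lost without either shCENPA1 library and without shCENPA2 library 2. The difference of CENPA was also lost by voom on recovered reads and after adding 1 to RPKM. That of FKBP5 was also lost with no trend in the variance.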

How the results depend on the processing

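For the 9 genes and 3 comparisons, 547 of 594 alternative values kept direction and side of the threshold, 25 lost and 13 gained a call, and 9 changed sign; the cause was not tested. With shCENPA1, 2 genes passed as reported, against 6 with 4 runs as replicates, 5 with an estimated correlation of lanes, 1 with no trend in the variance and 1 to 3 with each library left out (1 without either shNT library or without shCENPA1 library 2). With shCENPA2, 5 passed as reported, against 2 with no trend in the variance and 1 to 4 with each library left out (1 without shNT library 1, 2 without shNT library 2, 3 without shCENPA2 library 1 and 2 without shCENPA2 library 2). A fit left with 1 library in a group assumes that it varies like the others. Between the shRNAs 0 passed under every alternative run. With a library left out some estimates changed sign, none of them a call. From shCENPA1 to shCENPA2, GATA2 ranged from -0.36 to 0.16, GRHL2 from -0.04 to 0.12, NCOA2 from -0.14 to 0.43, NCOA3 from -0.01 to 0.49 and TRIM24 from -0.03 to 0.05 (-0.03 also with the length trend removed, chosen after seeing the data, as HOXB9 with shCENPA1 then at -0.02). From shNT to shCENPA1, NCOA1 ranged from -0.28 to 0.09, NCOA3 from -0.35 to 0.15, HOXB9 from -0.00 to 0.06 and GATA6 from -0.26 to 0.02. Differences between library 2 and library 1 were not positively correlated between groups (correlations -0.06, -0.10 and -0.15). These values cannot show whether libraries of the same number were handled together. With the replicate block 2, 4 and 0 genes passed in the 3 comparisons, the call of FOXA1 with shCENPA2 being lost. With the numbers of shCENPA1 crossed, chosen after seeing the data, 2, 5 and 0 passed.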
